A study of Mus musculus with 24 samples.

Results

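The Hox genes of mouse skin were examined to find which paralogs are used in dorsal skin of E18.5 embryos, shortly before birth, and whether the samples or genotypes differ in their positional code. The members are all gene symbols of the count table made of Hox, a cluster letter a to d and a paralog number. They are 39 of 54087 symbols: 11 in the Hoxa cluster (chromosome 6), 10 in Hoxb (chromosome 11), 9 in Hoxc (chromosome 15) and 9 in Hoxd (chromosome 2). The libraries come from wildtype embryos (WT), Dsg1+/- embryos (HET) and Dsg1-/- embryos (KO), and the tissue is labelled skin in all of them. Per the study's methods it is dorsal skin cut from the pelt and flash frozen, of both sexes. The KO allele lacks the tandem genes Dsg1c, Dsg1a and Dsg1b, the mouse genes for desmoglein 1, an adhesion protein of keratinocyte junctions. It was made with CRISPR/Cas9 in C57BL/6J zygotes and carried on from 1 founder, so that all HET and KO embryos hold the same edited chromosome. HET embryos had 1 intact copy of the Dsg1 cluster and KO embryos none. No further treatment is given for any group.

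Hox genes encode homeodomain transcription factors that give cells an address along the body. They lie in 4 clusters, and the order of the genes in a cluster matches the order in which they are used from head to tail: low paralog numbers reach far forward, and high numbers are used only toward the tail and at the ends of the limbs. Genes of the same number in different clusters (paralogs) have similar domains. Dermal fibroblasts keep this code after development, so that skin of the neck, trunk, limbs and digits differs in its Hox transcripts.

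The analysis used 15 columns, 5 per genotype, each the summed counts of the libraries that share a title number and a genotype. Columns held 15.3 M to 33.7 M counts, and the 24 libraries 8.98 M to 20.96 M. Levels are given as CPM (counts scaled to the column's adjusted total) and as CPM per kb where genes are compared with each other. The number of a replicate is a name and gives no order. The labels do not say whether the numbers are separate embryos, so the p-values measure the spread between these columns. The targeted genes followed the labels: the summed level of the Dsg1 genes was 723 to 933 CPM in WT, 371 to 492 CPM in HET and 0.103 to 0.902 CPM in KO columns.

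Some columns stood apart in other respects. The 2 libraries summed as WT replicate 2 differed in sex-linked transcripts, with Xist at 0.264 CPM in one and 564 CPM in the other. The Y-linked gene Ddx3y was at 141 and 0.0513 CPM in the same order, so this column mixes a male and a female library. The Hox levels of the 2 libraries are compared with each other below. In KO replicates 2 and 4 the summed level of the dorsal trunk mesenchyme genes was 83.0 and 77.6 CPM, against 142 to 194 CPM in the other columns. KO replicate 4 also had the lowest summed level of the 8 dermal fibroblast markers (15012 CPM against 20250 to 37108 CPM elsewhere). The 4 adipocyte markers were highest in KO replicate 4 (4816 CPM) and HET replicate 3 (3616 CPM), against 312 to 1375 CPM in the other columns. Some counts of Hox genes past a threshold, some fold changes and the index are also given without KO replicates 2 and 4. In whole skin, fewer cells of a type and less RNA per cell cannot be told apart. All 8 keratinocyte, 8 dermal fibroblast and 8 skeletal muscle markers were at a mean of 1 CPM or above, so the libraries hold epidermis, dermis and muscle, and their Hox transcripts are a sum over these tissues. Of the neural tube and neuron markers, 5 of 7 were below a mean of 1 CPM, among them the transcription factors Sox1 and Olig2, both at the floor of 3 counts or fewer in every column. Stmn2 and Tubb3 of the same list went the other way, at 12.1 to 31.4 CPM and 1.27 to 7.40 CPM over the columns.

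Promoters of 4 genes of the Hoxa cluster are shown because these neighbours behaved differently below: Hoxa9 and Hoxa10 varied between columns together, Hoxa7 lies next to them and was among the highest members, and Hoxa5 varied least. Each is the 250 bases before a transcription start in RefSeq (GRCm38.p6, minus strand of chromosome 6), read 5′ to 3′. Capitals mark the letters TTTATG on either strand, a core of the sites of caudal (CDX) proteins, which switch on Hox genes of the trunk in the early embryo.
Hoxa5 (chr6:52204588-52204837): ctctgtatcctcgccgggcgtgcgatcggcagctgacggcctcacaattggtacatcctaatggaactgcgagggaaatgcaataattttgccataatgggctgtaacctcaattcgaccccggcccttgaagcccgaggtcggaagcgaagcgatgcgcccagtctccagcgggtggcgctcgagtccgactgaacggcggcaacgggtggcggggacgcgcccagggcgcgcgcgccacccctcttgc
Hoxa7 (chr6:52218574-52218823): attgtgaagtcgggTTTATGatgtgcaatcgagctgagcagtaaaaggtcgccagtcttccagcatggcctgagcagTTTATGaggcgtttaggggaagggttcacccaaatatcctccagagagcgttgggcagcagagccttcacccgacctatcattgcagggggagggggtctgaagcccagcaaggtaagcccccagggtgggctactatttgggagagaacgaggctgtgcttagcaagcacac
Hoxa9 (chr6:52227371-52227620): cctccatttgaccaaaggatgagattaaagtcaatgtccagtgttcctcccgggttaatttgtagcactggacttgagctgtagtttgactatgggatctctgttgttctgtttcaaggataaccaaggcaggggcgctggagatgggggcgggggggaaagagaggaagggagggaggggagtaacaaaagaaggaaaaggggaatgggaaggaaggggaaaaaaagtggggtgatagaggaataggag
Hoxa10, inner start (chr6:52234940-52235189): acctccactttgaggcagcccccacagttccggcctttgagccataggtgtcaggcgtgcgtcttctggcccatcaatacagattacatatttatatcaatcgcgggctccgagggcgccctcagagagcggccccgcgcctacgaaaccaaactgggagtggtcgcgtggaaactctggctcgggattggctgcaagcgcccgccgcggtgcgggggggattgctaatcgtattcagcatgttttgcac
Hoxa10, outer start (chr6:52240855-52241104): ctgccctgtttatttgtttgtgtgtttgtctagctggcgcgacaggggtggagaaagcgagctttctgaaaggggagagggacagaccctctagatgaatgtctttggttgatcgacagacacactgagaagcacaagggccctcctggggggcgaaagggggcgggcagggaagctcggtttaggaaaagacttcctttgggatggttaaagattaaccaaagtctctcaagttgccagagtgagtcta
The letters occur at 2 places in the Hoxa7 window and at none in the Hoxa5, Hoxa9 and Hoxa10 windows. RefSeq windows were at hand for 22 of the 39 genes, 24 windows in all, and 5 of the 24 hold TTTATG (Hoxa7, Hoxb8, Hoxd3, Hoxd4 and one Hoxd11 start), compared with 10.8% of 32851 windows of the same length over all genes. The letters TGATTNAT, a core of joint HOX and PBX sites searched on both strands, occur in 2 of the 24 windows (Hoxa2 and a Hoxd11 start) and in 2.82% of all windows. No Hox window holds both motifs, so none of their matches overlap. A match describes the letters and does not show that a protein binds.

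Late-gestation skin used most Hox genes of groups 1 to 10, and of groups 11 to 13 only Hoxc13 was expressed. A gene was counted as expressed at a mean of 1 CPM or above over the 15 columns, as trace below that with more than 3 counts in at least 1 column, and otherwise as at the floor. By this rule 28 of the 39 genes were expressed: 9 of 11 in Hoxa, 8 of 10 in Hoxb, 7 of 9 in Hoxc and 4 of 9 in Hoxd. The 8 trace genes were Hoxb1, Hoxd1 and Hoxd3 at the forward end and Hoxa11, Hoxa13, Hoxc11, Hoxd11 and Hoxd13 at the tail end. Hoxb13, Hoxc12 and Hoxd12 were at the floor, and Hoxd12 had no count in any column. A count of 0 was taken to allow up to 3 counts, and such limits cover counting error only. Each cluster gave a similar share of the summed Hox CPM: 25.3% for Hoxa, 21.96% for Hoxb, 27.5% for Hoxc and 25.3% for Hoxd.

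The highest level per length in each cluster belonged to paralog group 7 or 8. Hoxd8, which acts in the trunk with the other group 8 genes, was the highest at 22.5 ± 4.68 CPM per kb (SD, n = 15), and its gap to the next gene was larger than their spread. Hoxa7 (10.001 ± 1.93), Hoxc8 (9.82 ± 2.34), Hoxb7 (9.59 ± 1.81), Hoxa5 (8.40 ± 0.868), Hoxc6 (7.70 ± 0.933) and Hoxb8 (6.06 ± 1.32 CPM per kb) followed. From Hoxa7 down to Hoxa3 (0.670 ± 0.161 CPM per kb) no neighbour in the order of levels was separated from the next by more than their SDs. The length used decides parts of this order: with the median length of coding transcripts in place of all exon bases, Hoxa7 came first at 39.7 and Hoxd8 second at 35.1 CPM per kb. By that length Hoxa9 (4.51) stood above Hoxc9 (4.26), Hoxa10 (2.99) above Hoxc10 (2.40) and Hoxd11 (0.268) above Hoxa11 (0.212 CPM per kb). At the tail end, over all exon bases, Hoxd9 was at 5.67 ± 1.38, Hoxc9 at 2.64 ± 0.970, Hoxb9 at 2.63 ± 1.05 and Hoxa9 at 1.65 ± 0.510 CPM per kb. Levels in group 10 were 2.40 ± 1.64 for Hoxc10, 1.83 ± 0.729 for Hoxa10 and 1.07 ± 0.402 CPM per kb for Hoxd10. In group 11 Hoxa11 was at 0.212 ± 0.178 CPM per kb and Hoxc11 and Hoxd11 were lower still.

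**Figure D1:**
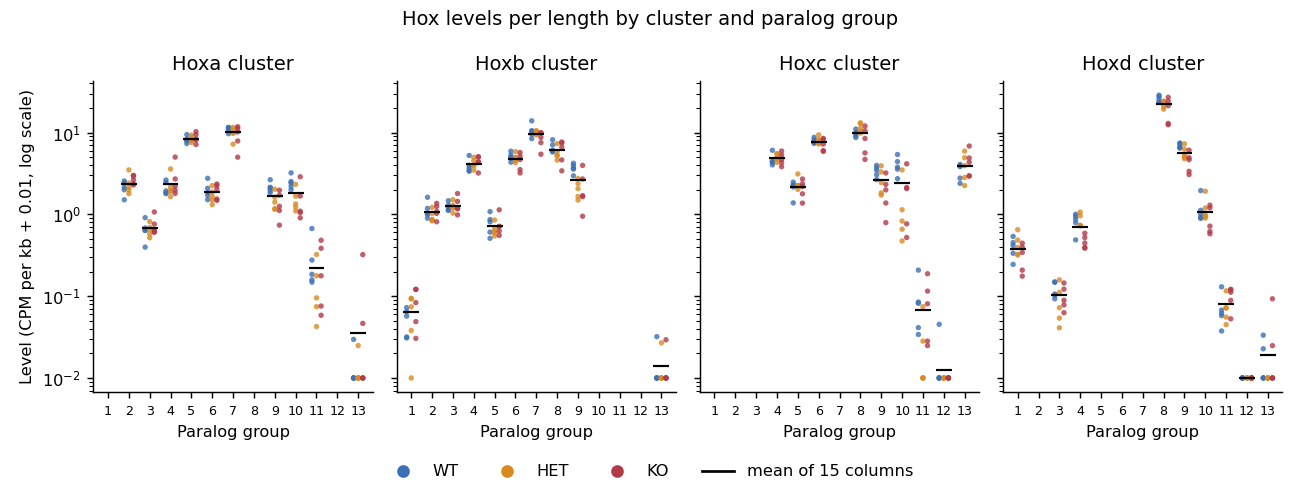
Level of 38 Hox genes in CPM per kb (0.01 added, log axis) against its paralog group, 1 panel per cluster; dots are the 15 columns coloured by genotype and black lines their means. Levels peak at groups 7 and 8, fall from group 9 on, and Hoxc13 stands above the other genes of groups 11 to 13.

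Hoxc13 stood above the other genes of its group, with 3.91 ± 1.31 CPM per kb, while Hoxa13 was at 0.0255 and Hoxb13 at 0.00388 CPM per kb. Hoxc13 is known for its use in hair follicles and nails along the whole body, where it drives hair keratin genes. Hoxc13 was at 9.41, 9.62, 9.99, 5.86 and 6.799 CPM in WT replicates 1 to 5, at 9.67, 14.5, 6.92, 12.1 and 5.504 CPM in HET replicates 1 to 5 and at 16.8, 7.23, 7.24, 10.6 and 12 CPM in KO replicates 1 to 5. KO replicate 1 and HET replicate 2 were highest and HET replicate 5 and WT replicate 4 lowest, and the 3 genotypes overlapped. Across the 15 columns its log2 level followed the mean log2 level of the 9 hair follicle markers (Pearson r = 0.91, Spearman rho = 0.87, n = 15). Without the 2 columns farthest from the median of Hoxc13 r was 0.91, and on deviations from the genotype means it was 0.93. Krt25, Krt27 and Krt71, keratins of the inner root sheath, gave r of 0.87, 0.86 and 0.86. All points share library and depth, so these values are descriptions. Foxn1 and Krt31 were the exceptions in the list, both with r of 0.23. Hoxc10, which lies in the same cluster, had an r of -0.31 with Hoxc13.

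Among the expressed genes, the coefficient of variation (CV) between columns was 10.3% to 37.3% in groups 1 to 5 and 12.1% to 23.8% in groups 6 to 8. Hoxa5, which patterns the neck and the upper chest, varied least, with a CV of 10.3%. Hoxa5 was at 15.6, 15.1, 14.9, 17.7 and 13.75 CPM in WT replicates 1 to 5, at 15.3, 14.2, 16.5, 17.4 and 14.98 CPM in HET replicates 1 to 5 and at 15.5, 13.4, 17.7, 19.2 and 15.4 CPM in KO replicates 1 to 5. Hoxc6 (CV 12.1%) and Hoxc4 (CV 14.4%), used in the neck and chest, came next. Hoxc6 was at 17.8, 18.7, 19.6, 21.03 and 18.1 CPM in WT replicates 1 to 5, at 19.6, 17.7, 19.5, 17.4 and 22.5 CPM in HET replicates 1 to 5 and at 20.3, 14.5, 19.96, 14.1 and 17.4 CPM in KO replicates 1 to 5. Hoxc4 was at 11.5, 11.1, 10.3, 15.6 and 11.1 CPM in WT replicates 1 to 5, at 11.1, 12.1, 13.98, 12.8 and 14.2 CPM in HET replicates 1 to 5 and at 13.6, 10.99, 15.2, 12.1 and 9.81 CPM in KO replicates 1 to 5. In all of these the 3 genotypes overlapped, and WT replicate 4 was the highest for Hoxc4. Among the genes of groups 1 to 4, Hoxa2, which patterns the hindbrain and the neural crest, was expressed in every column. Hoxa2 was at 4.27, 4.52, 2.66, 3.78 and 3.53 CPM in WT replicates 1 to 5, at 3.51, 3.16, 3.79, 6.18 and 4.26 CPM in HET replicates 1 to 5 and at 4.18, 4.68, 5.23, 5.29 and 4.05 CPM in KO replicates 1 to 5. The genotypes overlapped for Hoxa2, with HET replicate 4 highest and WT replicate 3 lowest. For Hoxb4 the genotypes overlapped too. Hoxb4 was at 9.46, 8.61, 10.2, 13.4 and 8.81 CPM in WT replicates 1 to 5, at 8.88, 10.2, 11.6, 10.1 and 12.8 CPM in HET replicates 1 to 5 and at 11, 11.3, 12.9, 12.9 and 8.19 CPM in KO replicates 1 to 5. Among the expressed genes of groups 1 to 5, Hoxa4 was the least even, with a CV of 37.3%. Hoxa4 was at 2.91, 3.88, 4.17, 2.84 and 3.07 CPM in WT replicates 1 to 5, at 2.604, 3.42, 5.703, 3.12 and 3.01 CPM in HET replicates 1 to 5 and at 3.52, 3.14, 4.298, 7.97 and 2.86 CPM in KO replicates 1 to 5. KO replicate 4 was highest and HET replicate 3 next. Other expressed genes of groups 1 to 5 ranged from 2.33 to 6.37 CPM for Hoxa3, 2.80 to 5.603 for Hoxb2, 4.14 to 7.60 for Hoxb3, 1.39 to 3.14 for Hoxb5 and 4.205 to 9.603 CPM for Hoxc5.

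The trunk genes of groups 6 to 8 held the highest levels, and for most of them KO replicate 4 or KO replicate 2 was the lowest column. Hoxd8 was at 64.1, 75.2, 69.8, 64.3 and 78.5 CPM in WT replicates 1 to 5, at 66.4, 63.99, 57.2, 65.5 and 52.98 CPM in HET replicates 1 to 5 and at 58.4, 34.1, 66.3, 35.5 and 73.98 CPM in KO replicates 1 to 5. Hoxa7 was at 27.8, 32.4, 30.9, 33.04 and 33.1 CPM in WT replicates 1 to 5, at 31.2, 28.7, 20.7, 33.2 and 28.04 CPM in HET replicates 1 to 5 and at 29.2, 22.6, 32.2, 14.3 and 33.9 CPM in KO replicates 1 to 5. Hoxc8 was at 28.2, 27.6, 31.2, 24.6 and 25.99 CPM in WT replicates 1 to 5, at 29.4, 37.2, 27.9, 36.3 and 31.8 CPM in HET replicates 1 to 5 and at 34.02, 15.9, 29.7, 13.3 and 23.9 CPM in KO replicates 1 to 5. For these 3 genes KO replicates 2 and 4 were at the bottom of KO, and the other 3 KO columns overlapped the WT columns. HET replicate 3 was also low for Hoxa7. Hoxb8 was at 18.6, 15.2, 15.6, 21.5 and 16.01 CPM in WT replicates 1 to 5, at 13.73, 13.9, 12.1, 19.3 and 15.4 CPM in HET replicates 1 to 5 and at 17.4, 12.2, 19.6, 8.94 and 20.2 CPM in KO replicates 1 to 5. Hoxb7 was at 21.4, 15.9, 14.7, 12.99 and 16.3 CPM in WT replicates 1 to 5, at 16.01, 14.5, 14.5, 15.5 and 16.3 CPM in HET replicates 1 to 5 and at 11.6, 15.3, 13.4, 8.38 and 15.3 CPM in KO replicates 1 to 5. Hoxb6 was at 10.3, 9.48, 8.504, 9.79 and 11.6 CPM in WT replicates 1 to 5, at 8.88, 8.41, 9.68, 9.69 and 11.4 CPM in HET replicates 1 to 5 and at 9.17, 6.897, 10.1, 6.27 and 11.2 CPM in KO replicates 1 to 5. In Hoxb, KO replicate 4 was the lowest column for all of these, whereas KO replicate 2 had Hoxb7 within the range of WT. Hoxa6 ranged from 1.14 to 2.40 CPM. Counted over the 28 expressed genes, KO replicate 4 was the lowest column for 11 and KO replicate 2 for 5, and WT replicate 4 was the highest for 11. The summed level of the 39 genes was 332 to 360 CPM in WT, 286 to 326 CPM in HET, 232 CPM in KO replicate 2, 228 CPM in KO replicate 4, and 311 to 340 CPM in the other 3 KO columns. In the same 2 columns Twist2, a transcription factor of dermal fibroblasts, was at 18.7 and 15.2 CPM, against 32.3 to 57.0 CPM in the others. Its part in the lower Hox sum was not tested.

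The 3 most variable expressed members belonged to groups 9 and 10. Hoxc10, a gene of the lumbar and hindlimb level, ranged 11.6-fold over the columns (CV 68.6%), followed by Hoxb9 (CV 39.9%) and Hoxa10 (CV 39.8%). Hoxc10 was at 7.18, 5.19, 6.797, 10.3 and 8.41 CPM in WT replicates 1 to 5, at 6.64, 1.56, 0.883, 1.24 and 2.15 CPM in HET replicates 1 to 5 and at 1.44, 3.91, 4.04, 0.977 and 7.903 CPM in KO replicates 1 to 5. All 5 WT columns, HET replicate 1 and KO replicate 5 were at 5 CPM or above, and the other 8 columns were below that. The 2 libraries summed as WT replicate 2 were at 6.93 and 3.79 CPM, so its place above 5 CPM rests on the sum. The other members of groups 9 and 10 in Hoxa, Hoxb and Hoxc set the columns apart in nearly the same way. Hoxa10 was at 6.501, 7.16, 7.87, 10.5 and 8.21 CPM in WT replicates 1 to 5, at 7.58, 3.98, 3.57, 4.36 and 5.41 CPM in HET replicates 1 to 5 and at 3.396, 3.54, 5.45, 2.93 and 9.38 CPM in KO replicates 1 to 5. Hoxb9 was at 10.8, 7.59, 9.17, 10.2 and 9.42 CPM in WT replicates 1 to 5, at 7.03, 5.28, 3.83, 4.23 and 6.08 CPM in HET replicates 1 to 5 and at 4.33, 4.205, 6.94, 2.42 and 10.2 CPM in KO replicates 1 to 5. Here too HET replicate 1 and KO replicate 5 were the highest of their genotypes, and HET replicates 3 and 4 and KO replicates 1, 2 and 4 were low. Hoxa9 was at 11.9, 10.9, 10.2, 14.7 and 11.7 CPM in WT replicates 1 to 5, at 11.3, 7.81, 6.37, 6.51 and 8.997 CPM in HET replicates 1 to 5 and at 6.94, 6.16, 9.53, 4.06 and 10.9 CPM in KO replicates 1 to 5. Hoxc9 was at 9.61, 8.38, 8.98, 7.39 and 6.45 CPM in WT replicates 1 to 5, at 9.503, 5.92, 4.16, 4.42 and 7.99 CPM in HET replicates 1 to 5 and at 4.81, 3.32, 5.62, 1.902 and 7.76 CPM in KO replicates 1 to 5. Between 4.06 and 14.7 CPM, Hoxa9 was lowest in KO replicate 4, which was also lowest for Hoxc9 and Hoxb9. Over the 15 columns the log2 level of Hoxc10 had a Pearson r of 0.90 with Hoxa10, 0.90 with Hoxb9, 0.87 with Hoxa9 and 0.69 with Hoxc9, and of -0.58 with Hoxa4. These r values describe 15 points that share library and depth.

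**Figure D2:**
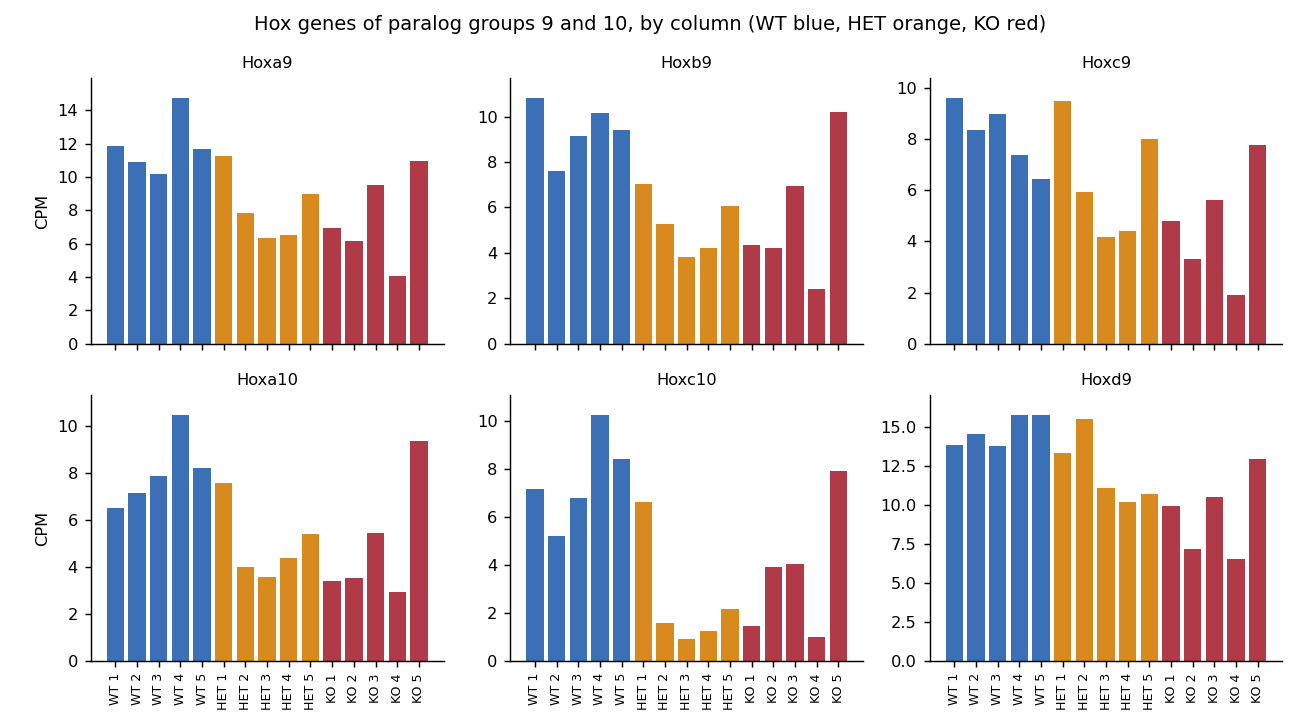
CPM of 6 Hox genes of paralog groups 9 and 10 (bars, linear axis from 0) in each of the 15 columns, coloured by genotype. Hoxa9, Hoxb9, Hoxa10 and Hoxc10 are high in all WT columns, HET replicate 1 and KO replicate 5; Hoxd9 differs less between columns.

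The Hoxd cluster did not share this pattern in full. Hoxd9 was at 13.9, 14.5, 13.8, 15.8 and 15.8 CPM in WT replicates 1 to 5, at 13.3, 15.5, 11.1, 10.2 and 10.7 CPM in HET replicates 1 to 5 and at 9.92, 7.16, 10.5, 6.53 and 12.9 CPM in KO replicates 1 to 5. Hoxd9 was lower in all KO columns than in any WT column, and HET overlapped both. Hoxd10 was at 1.601, 1.65, 1.802, 3.53 and 2.01 CPM in WT replicates 1 to 5, at 1.76, 3.46, 1.62, 1.69 and 2.15 CPM in HET replicates 1 to 5 and at 2.16, 1.03, 1.11, 1.28 and 2.33 CPM in KO replicates 1 to 5. WT replicate 4 and HET replicate 2 stood above the rest for Hoxd10, whose r with Hoxc10 was 0.16. Hoxd9 followed Hoxc10 more closely than Hoxd10 did, with a Pearson r of 0.59 and a Spearman rho of 0.69. Hoxd4 was at 1.41, 2.93, 2.31, 2.55 and 2.77 CPM in WT replicates 1 to 5, at 2.12, 2.12, 2.13, 2.798 and 3.11 CPM in HET replicates 1 to 5 and at 1.503, 1.11, 1.702, 1.13 and 1.29 CPM in KO replicates 1 to 5. Hoxd4, a gene of the neck level, was lower in every KO column than in any HET column, and KO overlapped only the lowest WT column, WT replicate 1. Hoxd1 was at 0.437, 0.753, 0.822, 0.982 and 0.604 CPM in WT replicates 1 to 5, at 0.586, 1.19, 0.883, 0.716 and 0.574 CPM in HET replicates 1 to 5 and at 0.721, 0.369, 0.809, 0.308 and 0.619 CPM in KO replicates 1 to 5. For Hoxd1, a trace gene known from sensory neurons, the genotypes overlapped.

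The trace genes of the tail end held few counts. Hoxa11 had 2 to 30 counts in a column. Hoxa11 was at 0.3396, 0.609, 0.316, 0.4002 and 1.51 CPM in WT replicates 1 to 5, at 0.716, 0.0744, 0.147, 0.195 and 0.383 CPM in HET replicates 1 to 5 and at 0.1503, 0.111, 0.383, 1.079 and 0.857 CPM in KO replicates 1 to 5. WT replicate 5, KO replicate 4 and KO replicate 5 were the highest for Hoxa11, and the genotypes overlapped. Hoxa13, a gene of the digits and the end of the gut and genital tract, had 20 counts in all columns together, 15 of them in KO replicate 4. Hoxd13, with the same use, had 8 counts, 4 of them in KO replicate 4. Hoxc11 had at most 11 counts and Hoxd11 at most 16. The caudal homeobox genes Cdx1, Cdx2 and Cdx4 were at the floor in every column, and so were Evx1 and Evx2, which lie beside the ends of the Hoxa and Hoxd clusters.

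To compare columns, a positional index was formed: the log2 of the summed CPM per kb of groups 9 to 13 minus that of groups 1 to 8, with 0.5 added to each sum. A higher index means relatively more transcripts of groups 9 to 13, which include Hoxc13, the gene that followed the hair follicle markers. The index of WT was -1.97 ± 0.0753 (SD, n = 5), with values of -1.95, -2.09, -1.96, -1.88 and -1.97 in WT replicates 1 to 5. HET was at -2.39 ± 0.330, with values of -1.97, -2.14, -2.72, -2.68 and -2.47. KO was at -2.37 ± 0.284, with values of -2.40, -2.47, -2.52, -2.57 and -1.87. The WT columns lay within a narrow range. HET replicate 1 and KO replicate 5 fell in or above that range, and the other 4 HET and 4 KO columns lay below it. The 2 libraries of WT replicate 2 were at -1.98 and -2.18, and the lower of them lay below HET replicate 2. The ranges of HET and KO overlapped. With Hoxc13 left out, a choice made after seeing the data, the index was -2.16 ± 0.119 in WT, -2.71 ± 0.374 in HET and -2.76 ± 0.383 in KO. No test was made of this index, since it is a score over the members.

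Groups 9 and 10 alone split the columns likewise. They held 17.3 ± 1.28% of the summed Hox CPM per kb in WT (15.6% to 19.2%), 12.6 ± 2.89% in HET and 11.8 ± 3.40% in KO (SD, n = 5). HET replicate 1 (16.8%) and KO replicate 5 (17.3%) were inside the WT range. The other HET and KO columns were at 8.14% to 13.5%.

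The same balance was then taken in each cluster alone, since the 4 clusters lie on different chromosomes. The Hoxa and Hoxb balances ran together over the 15 columns (r = 0.94, rho = 0.88). The Hoxc balance had an r of 0.72 with Hoxa and 0.76 with Hoxb, which became 0.94 and 0.92 when Hoxc13 was left out. Leaving out Hoxc13 was chosen after the data were seen. On deviations from the genotype means the Hoxa and Hoxb balances still had an r of 0.91. The Hoxd balance did not follow the others, with r of 0.23, 0.14 and 0.20 to Hoxa, Hoxb and Hoxc. It is mostly Hoxd9 over Hoxd8: Hoxd8 was at 22.5 CPM per kb, against 0.700 for Hoxd4 and 0.371 for Hoxd1. Both were lower in KO than in WT (log2 fold change -0.65 for Hoxd9 and -0.39 for Hoxd8), and this balance cannot show a change that they share. The genotype means of the Hoxd balance were -1.67 in WT, -1.71 in HET and -1.80 in KO, closer than the SD within a genotype (0.183 to 0.240). In Hoxa the means were -2.42, -2.98 and -3.04, in Hoxb -2.84, -3.48 and -3.41, and in Hoxc -1.14, -1.75 and -1.40, in the same order of genotypes.

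**Figure D3:**
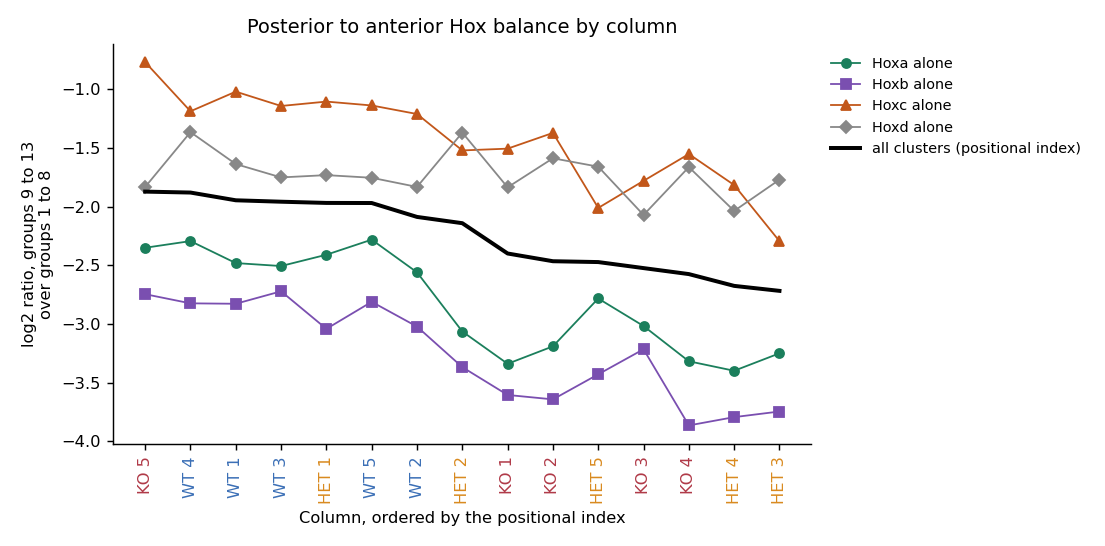
Log2 ratio of the summed CPM per kb of groups 9 to 13 over groups 1 to 8 in each column, for all clusters (thick line) and for each cluster alone; columns are ordered by the ratio over all clusters and coloured by genotype. The Hoxa, Hoxb and Hoxc lines fall from left to right, while the Hoxd line lies between -1.36 and -2.07.

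The 2 libraries of a title number were compared with each other and with libraries of other numbers, with no test. The labels do not say whether a number is 1 embryo. For 8 such numbers, without WT replicate 2, the indices of the 2 libraries differed by 0.00617 to 0.113 (median 0.0818). Libraries of different numbers within a title series differed by 0.00775 to 0.897 (median 0.327) over 72 pairs, which include pairs of different genotypes. These ranges overlapped. For single expressed Hox genes, the median absolute log2 difference was 0.0945 to 0.174 within a number. Between numbers it was 0.122 to 0.664 (median 0.301), which overlapped the range within a number. The 2 libraries of WT replicate 2, which disagree in sex-linked genes, differed by 0.194 in the index and by a median of 0.148 per gene, with Hoxc10 the largest at 0.79. In HET replicate 3 the 2 libraries gave an index of -2.74 and -2.67, and in HET replicate 1 of -1.95 and -1.999.

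The first comparison asks whether KO skin differs from WT in its Hox code. Of the 39 genes, 32 passed the filter on low counts and were tested in one edgeR quasi-likelihood fit over all genes. A gene counted as called when its adjusted p reached 0.1 and its log2 fold change was at least 1 in size. By this rule 0 of 32 Hox genes were called, beside 0.322% of 17094 genes tested. With the same adjusted p and no limit on the fold, 1 Hox gene passed (1.15% of all genes did): Hoxd4, with a log2 fold change of -0.83 ± 0.208 (SE) and an edgeR adjusted p of 0.0978. Its edgeR, DESeq2 or limma-voom adjusted p ran from 0.00197 to 0.551 over 29 alternative settings, 14 of which put it at 0.1 or below. The lowest came from the fit to 24 separate libraries, which counts the repeat libraries of a number as replicates. In the GENCODE annotation Hoxd4 shares exon bases with Hoxd3 on its own strand and with Hoxd3os1 on the other, and whether the counting used strand is not given in the sources used here, so its count is uncertain. At an unadjusted p below 0.05, 8 of 32 Hox genes passed and all 8 were lower in KO, beside 9.18% of all genes tested that were lower at that limit. They were Hoxd4, Hoxd9, Hoxa9, Hoxc9, Hoxb9, Hoxa10, Hoxb7 and Hoxd8. DESeq2 and limma-voom also called none, with 8 and 9 at the unadjusted limit, beside 3505 and 3348 of 17094 genes in either direction. With no limit on the fold they passed 4 and 2 Hox genes at an adjusted p of 0.1. The share of all genes by that rule was not computed for these tools.

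Most of the 8 belong to the tail end. Hoxd9 was lower by a log2 fold change of -0.65 ± 0.166 (edgeR adjusted p = 0.101), and was the 1 Hox gene whose KO columns all lay below all WT columns (1.76% of all genes did so). Hoxa9 was at -0.66 ± 0.223, Hoxc9 at -0.80 ± 0.301, Hoxb9 at -0.75 ± 0.284 and Hoxa10 at -0.71 ± 0.288 (log2 fold change ± SE, edgeR adjusted p of 0.146 to 0.202). The largest difference, Hoxc10 at -1.05 ± 0.554, did not pass the unadjusted limit (edgeR adjusted p = 0.306). Hoxc10 shares some exon bases with Hoxc5, so its count is uncertain to that extent. Hoxb7 and Hoxd8 were at -0.34 and -0.39. By paralog group, the 7 tested genes of groups 9 and 10 were all lower in KO, with a median log2 fold change of -0.71. The 14 of groups 1 to 5 had a median of 0.06 and the 8 of groups 6 to 8 of -0.21, beside -0.01 over all genes tested. Of the 3 tested genes of groups 11 to 13, Hoxc13 and Hoxd11 were at 0.37 and 0.48 and Hoxa11 at -0.34. In the same comparison the 4 adipocyte markers had a median log2 fold change of 1.72, with 2 of 4 higher in KO at the unadjusted limit. Over all genes, 3296 of 17094 passed that limit in either direction. The 8 keratinocyte markers had a median of 0.19, with 3 higher at that limit, and the 8 dermal fibroblast markers one of -0.24, with 1 lower. Twist2 was at -0.65 ± 0.238 (edgeR adjusted p = 0.173), and over the 15 columns its log2 level had an r of 0.85 with Hoxd9, 0.82 with Hoxa9 and 0.77 with Hoxb9. Without the 2 columns farthest from the median of each Hox gene these were 0.49, 0.65 and 0.68. For Hoxc9, Hoxa10, Hoxd10 and Hoxc10 r was 0.81, 0.64, 0.51 and 0.49, and 0.39, 0.45, 0.55 and 0.37 without such columns. The part of adipocytes and keratinocytes in the lower levels of groups 9 and 10 was not tested.

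Single columns decided how these values stood to the threshold. Without KO replicate 5, whose groups 9 and 10 were like WT, 3 Hox genes were called: Hoxa10 at -1.07 (edgeR adjusted p = 0.0394), Hoxb9 at -1.07 (0.0421) and Hoxc9 at -1.05 (0.0633). In that fit 240 of 17289 genes were called. Without KO replicates 2 and 4, a choice made after seeing the data, none was called. The unadjusted limit was passed by 2 rather than 8, with Hoxb9 at -0.40, Hoxa9 at -0.38 and Hoxd8 at -0.09. Over all genes, 1983 of 17486 passed that limit in the same fit, in either direction. With the dermal fibroblast score as a covariate 2 passed the unadjusted limit (beside 2621 of 17094 genes), and the log2 fold change of Hoxc10 was -0.42. Without KO replicate 4 the count was 5 (beside 2402 of 17294 genes), and without WT replicate 2 it was 6 (beside 2536 of 17025 genes). With the 2 libraries of WT replicate 2 as separate columns no Hox gene was called, beside 138 of 16648 genes. The unadjusted limit was then passed by 8 of 31 Hox genes, beside 3826 of 16648 genes in either direction. The difference in positional index, KO minus WT, was -0.40, and it was -0.30 without KO replicates 2 and 4.

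The second comparison asks the same of HET and WT, and shares the WT columns with the first. No Hox gene was called, nor was any other gene (0% of 17094). At the unadjusted limit 4 of 32 Hox genes passed, all lower in HET, beside 0.755% of all genes tested that were lower. They were Hoxb9 (log2 fold change -0.83 ± 0.285), Hoxc10 (-1.57 ± 0.566), Hoxa9 (-0.53 ± 0.222) and Hoxa10 (-0.69 ± 0.288), all with an edgeR adjusted p of 1.00. Over the alternatives the adjusted p of Hoxb9 was 0.711 to 1.00. DESeq2 and limma-voom gave 0 called and 4 at the unadjusted limit as well, beside 279 and 257 of 17094 genes in either direction. Hoxb9 was the 1 member whose HET columns all lay below all WT columns (0.234% of all genes). The 2 libraries summed as WT replicate 2 were at 9.04 and 6.41 CPM for Hoxb9. The lower of them lay below HET replicate 1 (7.03 CPM), so this lack of overlap rests on the sum. Of the 7 tested genes of groups 9 and 10, 6 were lower in HET, with a median of -0.53, while groups 1 to 5 had a median of 0.05. Hoxd10 and Hoxd4 were both at 0.02. Hoxa11, a trace gene, was at -0.96 ± 0.672, with a mean of 0.635 CPM in WT and 0.303 CPM in HET. Without HET replicate 3, the column with the highest adipocyte markers in HET, or without HET replicate 4 or WT replicate 4, 2 Hox genes passed the unadjusted limit. Without HET replicate 1 there were 5. Over all genes, 171 of 17023, 271 of 17287, 230 of 17039 and 304 of 17018 passed it in these fits, in the same order. Hoxc10 was at -2.37 and Hoxa11 at -1.66 without HET replicate 1. The adipocyte markers had a median log2 fold change of 1.27 in HET vs WT, with 0 of 4 past the unadjusted limit, and their part in the values of groups 9 and 10 was not tested. With KO replicates 2 and 4 out of the shared fit, 7 Hox genes passed the unadjusted limit, beside 472 of 17486 genes.

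The third comparison sets KO against HET and shares columns with both others. No Hox gene was called (0.181% of all genes were). At the unadjusted limit 3 of 32 passed, all lower in KO, beside 7.87% of all genes tested: Hoxd4 at -0.85 ± 0.209 (edgeR adjusted p = 0.129), Hoxc8 at -0.47 ± 0.201 (0.269) and Hoxd9 at -0.37 ± 0.167 (0.288). DESeq2 and limma-voom also called none and had 3 each at the unadjusted limit, beside 2870 and 2915 of 17094 genes in either direction. Hoxd4 was the 1 member with no overlap between KO and HET (1.3% of all genes were lower with no overlap). The genes of groups 9 and 10 had a median of -0.13, with Hoxc10 at 0.51 ± 0.570 and Hoxb9 at 0.08 ± 0.288, both higher in KO. Hoxa11 was at 0.62 ± 0.697. Over 29 alternatives Hoxc10 ran from 0.03 without KO replicate 5 to 1.32 without HET replicate 1, and it was at 1.12 with the dermal fibroblast covariate. Over its 25 alternatives Hoxa11 ran from -0.093 in series 1 alone to 1.32 without HET replicate 1. Without KO replicate 2, KO replicate 4 or HET replicate 2 alone, 1 Hox gene passed the unadjusted limit. Over all genes, 2455 of 17034, 2168 of 17294 and 2428 of 17110 did so, in the same order. Without KO replicates 2 and 4 together the log2 fold change of Hoxc8 was -0.15 and that of Hoxd9 was -0.14, while that of Hoxd4 was -0.70.

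**Figure D4:**
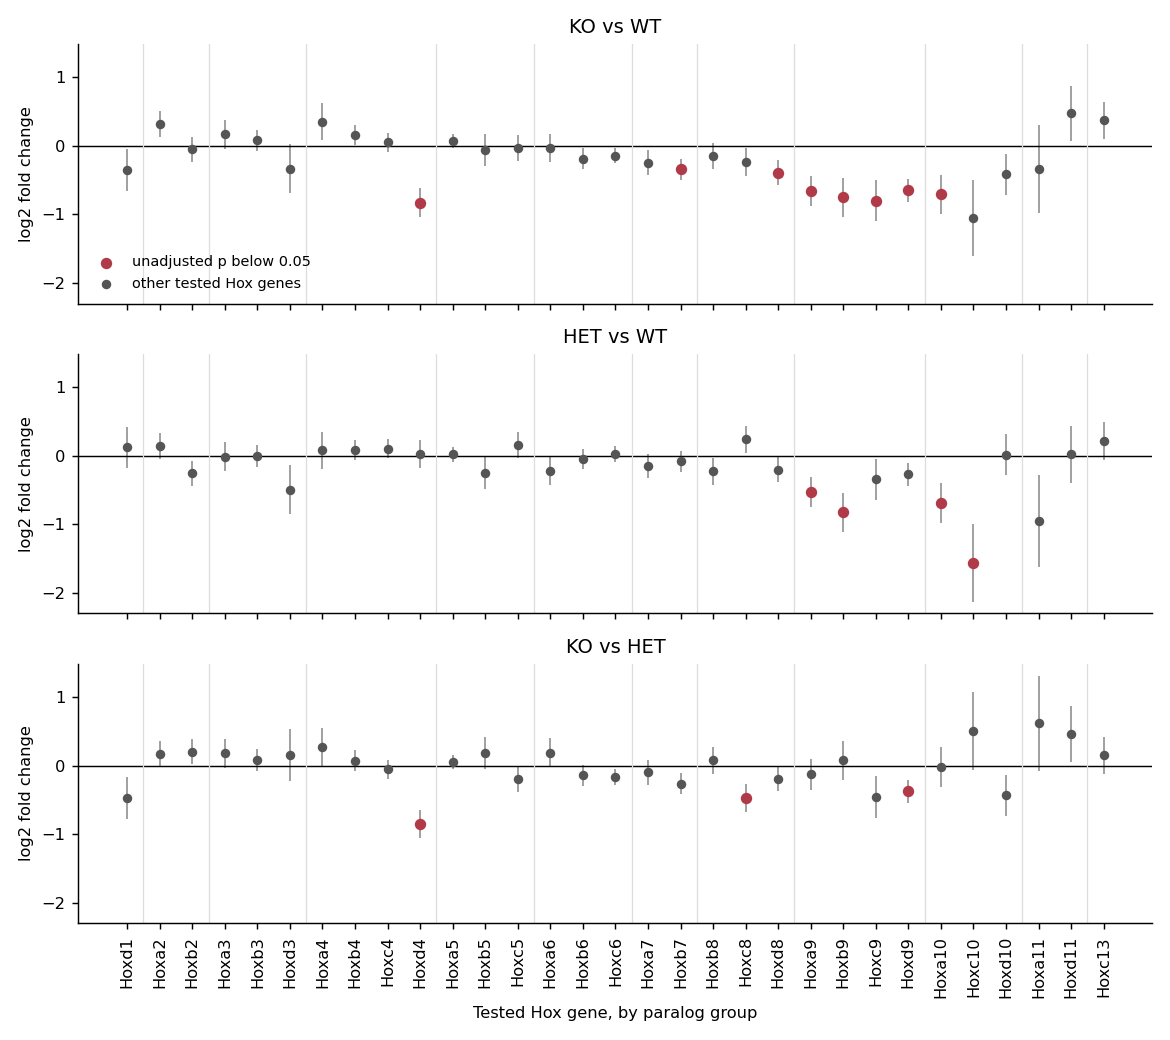
Log2 fold change (dots) with SE (bars) of 31 tested Hox genes in the 3 comparisons, ordered by paralog group, with red for an unadjusted p below 0.05. Genes of groups 9 and 10 lie below 0 in KO vs WT and most of them in HET vs WT, while groups 1 to 5 lie around 0, with Hoxd4 well below it in KO.

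The other genes of the Hox system held no calls. The cofactors of the PBX, MEIS and PKNOX families bind DNA jointly with HOX proteins, and 8 of 9 were at a mean of 1 CPM or above. Pbx2 was at 65.6 to 79.4 CPM and Pknox1 at 31.6 to 44.5 CPM over the columns. None of the 9 was called in any comparison. Meis1 (log2 fold change -0.33 ± 0.112, edgeR adjusted p = 0.149) and Meis3 (-0.31 ± 0.113, 0.165) passed the unadjusted limit in KO vs WT, and Meis3 alone in KO vs HET. Of all genes tested, 9.18% were lower at that limit in KO vs WT and 7.87% in KO vs HET. Of 11 noncoding and antisense genes in the clusters, 8 were tested and none was called. Hoxd3os1 (-0.64 ± 0.216, edgeR adjusted p = 0.145), Haglr (-0.66 ± 0.271, 0.203) and Hoxb5os (-0.49 ± 0.224, 0.242) passed the unadjusted limit, lower in KO than in WT. The share of all genes tested that were lower at that limit was 9.18%, as above. Hoxd3os1 shares exon bases with Hoxd3 and Hoxd4, Haglr with Hoxd3 and Hoxb5os with Hoxb5, in each case on the other strand. Whether the counting used strand is not given in the sources used here, so the counts of these genes are uncertain too. Hottip, at the tail end of Hoxa, had no count, and Hotair, in the tail end of Hoxc, was at 0.0206 CPM on average.

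Genes that mark body regions without being Hox genes were read in the same columns. The dorsal trunk genes were used in all columns. Zic1 was at 17.5, 39.01, 39.6, 18.8 and 32.5 CPM in WT replicates 1 to 5, at 39.9, 33.4, 29.5, 28.3 and 20.9 CPM in HET replicates 1 to 5 and at 32.2, 3.02, 30.6, 12.5 and 30.6 CPM in KO replicates 1 to 5. Zic1, which acts in the dorsal part of the somites and neural tube, was lowest in KO replicates 2 and 4. Tbx15 was at 122, 116, 109, 107 and 108 CPM in WT replicates 1 to 5, at 122, 102, 104, 89.98 and 117 CPM in HET replicates 1 to 5 and at 118, 62.04, 112, 54.5 and 101 CPM in KO replicates 1 to 5. Sim1 was at 2.96, 4.96, 4.43, 4.002 and 5.14 CPM in WT replicates 1 to 5, at 5.34, 4.87, 4.75, 4.099 and 4.64 CPM in HET replicates 1 to 5 and at 3.34, 0.885, 4.98, 1.18 and 3.62 CPM in KO replicates 1 to 5. En1 was at 8.44, 10.4, 10.1, 8.55 and 8.41 CPM in WT replicates 1 to 5, at 11.3, 8.33, 9.16, 7.94 and 8.81 CPM in HET replicates 1 to 5 and at 10.4, 4.28, 7.45, 3.08 and 7.62 CPM in KO replicates 1 to 5. Tbx15, a gene of the dorsal dermis, Sim1 and En1 were likewise lowest in the 2 KO columns, and their levels there lay below all WT and HET columns. Tbx18 was low in KO replicate 4 only (6.27 CPM against 11.6 to 18.3 CPM elsewhere). No gene of this list was called, and 1 of 5 passed the unadjusted limit in KO vs WT (Tbx18 at -0.42 ± 0.169, edgeR adjusted p = 0.195), beside 9.18% of all genes tested that were lower at that limit.

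**Figure D5:**
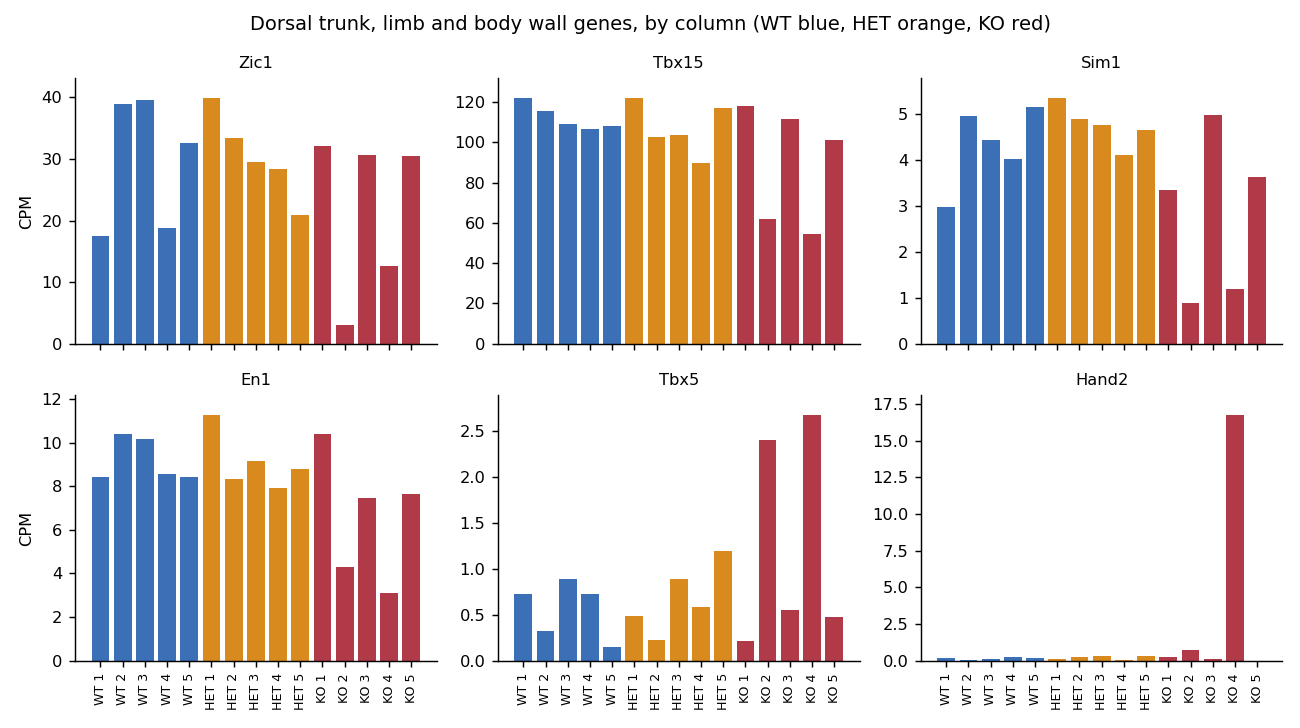
CPM of 4 dorsal trunk genes (Zic1, Tbx15, Sim1, En1), the forelimb gene Tbx5 and the body wall and limb gene Hand2 in the 15 columns, coloured by genotype, on linear axes from 0. KO replicates 2 and 4 are low in the dorsal genes and high in Tbx5, and Hand2 is high in KO replicate 4 alone.

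Tbx5, a gene of the forelimb and the chest wall, was at 2.40 and 2.67 CPM in KO replicates 2 and 4, against 0.151 to 1.196 CPM in the other columns. Hand2, used in the limb bud and the ventral body wall, was at 16.8 CPM in KO replicate 4 and at most 0.738 CPM elsewhere. Its relative Hand1 was at 3.44 CPM in KO replicate 4 and at most 0.101 CPM elsewhere. Other position genes ranged over all 15 columns from 1.06 to 2.32 CPM for the hindlimb gene Tbx4, 3.04 to 9.64 CPM for its partner Pitx1, 2.90 to 6.60 CPM for Lmx1b of the dorsal limb and 6.58 to 12.3 CPM for Gdf11. None of the genes tested in the limb (4 of 4), ventral body wall (1 of 3), head (3 of 5) and caudal (1 of 5) lists was called in any comparison. Hand1 and Hand2 did not pass the filter on low counts and were not tested. KO replicates 2 and 4 are the columns with the lowest Hox sums, and KO replicate 4 is the one that holds most Hoxa13 and Hoxd13 counts. The columns with low values for groups 9 and 10 were not limited to them: HET replicates 2, 3 and 5 and KO replicates 1 and 3 had 161 to 176 CPM of the dorsal trunk genes, inside the range of WT (156 to 183 CPM), and HET replicate 4 had 142 CPM. The labels name no site beyond skin, so the site taken, the embryo and the genotype cannot be told apart for a single column.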

How the data were processed

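RNA-Seq libraries of mouse skin (24, of 3 genotypes) were analysed from whole-number read counts per gene symbol, as the authors deposited them. Per the labels' processing notes the authors used STAR and HTSeq, and the notes name hg19, a human build, although the symbols are those of mouse genes. The annotation and the strand setting are not given in the sources used here. Libraries with the same title number and genotype were summed, which gave 15 columns, 5 per genotype, and 0 columns of the table went unused. Counts held 8.98 M to 20.96 M reads per library. Depth limits the trace genes most, and intervals or floors based on it cover counting error only.

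After filterByExpr and TMM scaling, edgeR 4.0.16 (R 4.3.3) fitted quasi-likelihood models to all genes, with Benjamini-Hochberg adjustment over all genes. All 3 genotypes entered 1 fit. CPM values use the TMM-adjusted total. Levels per kb divide by the union of exons in GENCODE vM21 (GRCm38). DESeq2 1.42.0 and limma 3.58.1 (voom) were alternatives, beside other filters, library choices, covariates and columns left out. Tables were handled with Python 3.11.15 and pandas 2.3.3. The fitting step was tested on simulated data. Members and gene lists were chosen with earlier results of these data known. Values by column were printed for the 5 highest expressed genes of each cluster, for genes at an unadjusted p below 0.05 and for the 3 largest fold changes of each comparison. Promoter windows come from the RefSeq table of GRCm38.p6, which held 22 of the 39 genes. Some genes are counted in the totals and sums but are not reported here by name.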

Additional observations from a re-analysis of the deposited data

Results flagged for a closer look

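Values were examined in 174 groups of 5 columns for a highest or lowest column set apart from the rest. A gap to the nearest column of more than 0.71 of the group's range was found 20 times. For independent, normally spread values about 1 in 20 groups (8.7) would pass this limit. The groups share columns and include a sum and an index over the same genes, so no excess is read from the 20. None of these gaps was given a cause, and each value below is the gap as a share of the range.

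Among the Hox genes, WT replicate 4 was set apart as highest for Hoxc4 (0.783) and Hoxd10 (0.786, at 3.53 CPM). It was also highest for the summed Hox level (0.769, at 360.3 CPM against 332 to 339 CPM). KO replicate 4 was highest for Hoxa4 (0.718, at 7.97 CPM) and Hoxb5 (0.726, at 3.14 CPM). HET replicate 3 was highest for Hoxa4 (0.736, at 5.703 CPM) and Hoxc5 (0.798, at 9.603 CPM), and WT replicate 5 was lowest for Hoxc5 (0.713, at 4.23 CPM). HET replicate 1 was highest for Hoxc10 (0.779, at 6.64 CPM against 0.883 to 2.15 CPM in the other HET columns). KO replicate 5 had the highest positional index of its genotype (0.750, at -1.87 against -2.57 to -2.40).

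Among the cofactors, WT replicate 5 was lowest for Pbx2 (0.770), WT replicate 4 highest for Meis2 (0.827), WT replicate 1 highest for Pknox1 (0.811) and HET replicate 1 highest for Pknox2 (0.897). The noncoding gene Hoxb5os was highest in WT replicate 1 (0.788). Among the position genes, Tbx18 was lowest in KO replicate 4 (0.793), Tbx4 lowest in WT replicate 5 (0.777), Pitx1 lowest in KO replicate 1 (0.727) and Lmx1b highest in HET replicate 4 (0.809). Hand2 in KO replicate 4 had the largest of the 20 gaps (0.956, at 16.8 CPM against 0 to 0.738 CPM in the other KO columns).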

How the results depend on the processing

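Of the counts, indices and levels that answer a comparison, 509 values under alternatives stayed on their side of the threshold or within the spread between columns, 7 moved and 3 passed a threshold. Of the fold changes of single named genes, 539 stayed, 4 passed the threshold and 1 turned its sign. The number of Hox genes called in KO vs WT was 0, and 1 with the 24 libraries kept separate (Hoxc10, in a fit that counts 8 libraries from 5 numbers per genotype as replicates), 1 with no limit on the fold (Hoxd4, fewer conditions to meet) and 0 to 3 when 1 column at a time was left out, the 3 without KO replicate 5. Over all genes, 55 were called in KO vs WT and 31 in KO vs HET, against 3 to 240 and 3 to 179 over the other libraries, tools, filters, covariates and columns. Hoxa11 in KO vs HET turned to -0.093 with series 1 alone. The balance within Hoxb, HET minus WT, was -0.37 with groups 8 to 13 set against 1 to 6, and with that split the Hoxc balance was -0.16 for HET minus WT and -0.13 for KO minus HET, and the Hoxd balance 0.17 for KO minus HET. The Hoxd balance, HET minus WT, was -0.27 with groups 9 to 13 against 1 to 7. With Hoxc13 left out, the Hoxc balance was -0.83 for KO minus WT and -1.08 for HET minus WT. Beyond the change of members, the cause was not tested. Leaving out KO replicates 2 and 4, or Hoxc13, was chosen after seeing the data. No paired analysis was possible because no title number occurs in more than 1 genotype. Genes below 1 CPM are limited by depth.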

Other observations

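Brown fat genes set 3 columns apart, and were chosen after their values were seen. Ucp1, the uncoupling protein of brown fat, was at 1461 CPM in KO replicate 4, 377 CPM in HET replicate 3 and 37.5 CPM in WT replicate 3, and at most 2.42 CPM in the other 12 columns. Cidea was at 810 CPM, 400.2 CPM and 55.5 CPM in the same columns and at 4.23 to 14.7 CPM elsewhere. Lhx8, a gene of the head mesenchyme list, was highest in HET replicate 3 (3.75 CPM) and KO replicate 4 (2.78 CPM). Of the Hox genes, Hoxa4 was highest in KO replicate 4 and HET replicate 3 as well, and its r with the adipocyte score was 0.76 over 15 columns and 0.32 without the 2 farthest columns. Hoxa7 had an r of -0.86 with that score, and of -0.69 without them. The genes of groups 9 and 10 ran against the score as well: r was -0.79 for Hoxa9, -0.74 for Hoxb9, -0.74 for Hoxd9, -0.72 for Hoxa10 and -0.65 for Hoxc10, and -0.58, -0.50, -0.53, -0.55 and -0.40 without the 2 farthest columns. The adipocyte markers had a median log2 fold change of 1.72 in KO vs WT, 1.27 in HET vs WT and 0.44 in KO vs HET. These are descriptions over columns that share library and depth. The part of fat in the Hox levels was not tested.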
